A study of Mus musculus with 72 samples.

Results

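The genes described here are 7 genes of cholesterol synthesis and its control by SREBP2: the transcription factor gene Srebf2, its feedback regulator Insig1, and the enzyme genes Hmgcs1, Idi1, Sqle, Tm7sf2 and Hsd17b7. A member was measured by a probe set that the array's annotation gives with its symbol alone, taking the one of highest mean over all arrays. Of the 7 genes 6 had such a probe set, out of 22180 genes in all, and all 6 lay above the filter on low values that left 13308 genes for testing. Each of the 6 had 1 probe set (17313504 for Srebf2, 17435584 for Insig1, 17290173 for Hmgcs1, 17311807 for Sqle, 17361921 for Tm7sf2 and 17229466 for Hsd17b7). The one probe set that lists Idi1, the isopentenyl diphosphate isomerase, also lists the predicted gene Gm13502, so Idi1 has no value here. No member is a gene of cholesterol uptake.

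SREBP2 is made as a membrane protein of the endoplasmic reticulum, where it is bound by the escort protein SCAP. When membrane sterols are low, SCAP carries SREBP2 to the Golgi, where proteases release the part that enters the nucleus and switches on genes of cholesterol synthesis and uptake. When sterols are plentiful, INSIG proteins hold SCAP and SREBP2 back in the endoplasmic reticulum, and since Insig1 and Srebf2 are themselves SREBP targets, the pathway regulates its own level. In mouse liver, cholesterol synthesis follows a daily cycle with feeding.

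The sequences before the start sites of 4 members are shown because Hmgcs1, Hsd17b7 and Tm7sf2 passed a test of a difference described further on, and Insig1 is the feedback regulator among the members. They are the 250 bases before the annotated start, from RefSeq on GRCm38.p6, written 5′ to 3′ on the gene's strand, with matches to 3 motifs in capitals: a sterol element (TCACNCCAC), the CCAAT box (CCAAT, printed as ATTGG where it lies on the opposite strand) and the E-box (CACGTG). The stretches are chr13:119690101-119690350 on the plus strand for Hmgcs1, chr5:28071162-28071411 on the plus strand for Insig1, chr19:6067851-6068100 on the minus strand for Tm7sf2 and chr1:169969206-169969455 on the minus strand for Hsd17b7.
Hmgcs1: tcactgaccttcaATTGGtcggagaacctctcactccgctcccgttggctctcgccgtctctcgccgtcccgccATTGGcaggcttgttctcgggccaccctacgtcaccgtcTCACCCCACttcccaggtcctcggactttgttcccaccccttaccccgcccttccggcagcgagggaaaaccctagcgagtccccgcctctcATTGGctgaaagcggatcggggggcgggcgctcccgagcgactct
Insig1: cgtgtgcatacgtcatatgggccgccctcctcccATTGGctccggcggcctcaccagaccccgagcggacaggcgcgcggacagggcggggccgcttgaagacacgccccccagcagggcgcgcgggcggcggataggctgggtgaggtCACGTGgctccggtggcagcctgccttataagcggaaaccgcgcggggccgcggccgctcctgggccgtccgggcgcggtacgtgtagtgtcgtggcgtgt
Tm7sf2: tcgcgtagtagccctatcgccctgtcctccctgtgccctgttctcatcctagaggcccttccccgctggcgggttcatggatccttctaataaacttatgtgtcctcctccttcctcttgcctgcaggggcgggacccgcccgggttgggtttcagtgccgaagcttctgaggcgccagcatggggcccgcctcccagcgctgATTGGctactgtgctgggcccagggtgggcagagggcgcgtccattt
Hsd17b7: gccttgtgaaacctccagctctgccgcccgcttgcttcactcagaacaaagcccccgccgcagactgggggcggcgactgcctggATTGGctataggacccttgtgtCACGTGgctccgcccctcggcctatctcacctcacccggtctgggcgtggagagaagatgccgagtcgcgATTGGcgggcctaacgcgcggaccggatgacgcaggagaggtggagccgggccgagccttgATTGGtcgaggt

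The RefSeq promoter table held 6 of the 7 members (Sqle was the exception), and motifs were searched on both strands from 250 bases before to 50 bases after the start, with no overlap between matches in the members. The sterol element was matched in Hmgcs1 alone, as TCACCCCAC from position −137, and by 1.24% of the table's 32851 promoters. The CCAAT box was matched in all 6, each time on the opposite strand, and by 37.4% of promoters. The E-box was matched in Insig1 from position −101 and in Hsd17b7 from position −143, and by 7.15% of promoters. These are matches of letters alone.

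Livers were collected every 4 h from mice kept under 12 h of light and 12 h of dark. Times are given as ZT, the hours since the lights came on, and were ZT0, 4, 8, 12, 16 and 20, with 3 arrays in each of 24 groups. The SIRT6 cohort, of a background labelled 129 mixed, held mice with a SIRT6 knockout (KO) in the liver and wild-type (WT) mice, and the SIRT1 cohort, of strain C57BL/6, held mice with a liver SIRT1 KO and WT mice. SIRT6 and SIRT1 are NAD-dependent deacylases, and the design follows each knockout and its own WT over the daily cycle. The Cre driver, the ages and whether each replicate is another mouse are not stated, so a p-value here reflects variation between arrays, which may be technical.

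The probe set of Sirt6 was higher in the arrays labelled SIRT6 KO (7.76 to 8.07, median 7.85) than in their WT (7.01 to 7.60, median 7.31), by 0.57 ± 0.05 (SE, limma adjusted p = 8.9e-09). That of Sirt1 read 8.50 to 8.94 (median 8.76) in SIRT1 KO-labelled arrays and 8.40 to 8.96 (median 8.75) in their WT. The sources used here do not place either probe set inside or outside the deleted part of its gene, so neither checks the knockout, and the groups are called KO-labelled throughout. The clock genes Arntl, Dbp and Nr1d1 were rhythmic in all 4 sets of cohort and genotype, with Arntl peaking between ZT21.2 and ZT22.0, Dbp between ZT8.3 and ZT10.2 and Nr1d1 between ZT4.6 and ZT7.0. The 99th percentile of intensity was 3217 to 3430 in the SIRT6 cohort and 3440 to 3641 in the SIRT1 cohort, so levels are compared within a cohort. One array, WT ZT12 replicate 1 of the SIRT6 cohort, stood apart, with a mean correlation of 0.912 with its replicates against a median of 0.968 between replicates of its cohort, and leaving it out changed no call of a member. All 10 hepatocyte markers passed the filter, while 4 of 8 lymphocyte markers did. Levels are given as log2(intensity + 16), a scale that understates changes of low values. With 3 arrays a group, precision is set by how few they are. In whole liver, fewer cells of a type and less RNA per cell cannot be told apart.

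In the SIRT1 cohort 5 of the 6 members were rhythmic in 1 or both genotypes, and Hmgcs1 had the largest fitted amplitude of the 6. Hmgcs1 encodes the cytosolic HMG-CoA synthase, which feeds the mevalonate pathway. Its fitted peak was about 3-fold above its fitted trough in both genotypes. The group means of Hmgcs1 were highest at ZT0 and ZT4 and lowest at ZT16. Srebf2 and Hsd17b7 also passed in both, with fitted peaks between ZT0.063 and ZT3.5. A 24 h cosine passed in 4 of the 6 members in SIRT1 KO-labelled livers (23.2% of all genes tested did) and in 4 of 6 in their WT (18.3%), where limma's moderated F test with Benjamini-Hochberg adjustment over all genes decided each call.

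Hmgcs1 in SIRT1 KO-labelled livers read 11.64, 11.99 and 12.02 at ZT0, 12.15, 12.43 and 11.36 at ZT4, and 10.76, 10.67 and 10.17 at ZT16. In their WT it read 11.89, 12.08 and 12.28 at ZT0, 11.92, 12.18 and 12.07 at ZT4, and 10.82, 10.49 and 10.59 at ZT16. In both genotypes every array at ZT0 and ZT4 lay above every array at ZT16, while the genotypes overlapped at these 3 times. The fitted amplitude, here always the fitted peak minus trough on the log2 scale, was 1.61 ± 0.17 (SE, n = 18) with a peak at ZT2.6 in SIRT1 KO-labelled livers, a 3.06-fold difference (limma adjusted p = 4.4e-06). It was 1.57 ± 0.10 with a peak at ZT2.1 in WT, a 2.97-fold difference (adjusted p = 8.4e-09). Amplitudes of at least 1 were fitted for 2.24% of genes in SIRT1 KO-labelled livers and for 1.98% in WT.

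Srebf2 averaged 9.50 ± 0.14 at ZT0 and 9.13 ± 0.14 at ZT16 in SIRT1 KO-labelled livers (SD, n = 3), and 9.44 ± 0.13 at ZT0 and 8.92 ± 0.23 at ZT12 in WT. Its amplitude was 0.38 ± 0.09 with a peak at ZT1.4 in KO-labelled livers (limma adjusted p = 0.0090) and 0.46 ± 0.09 with a peak at ZT0.063 in WT (adjusted p = 0.0044). An F test over the 6 times, which assumes no cosine shape, gave the WT rhythm of Srebf2 an adjusted p of 0.058. Hsd17b7, a sterol ketoreductase late in the pathway, had an amplitude of 0.69 ± 0.12 with a peak at ZT3.5 in SIRT1 KO-labelled livers (adjusted p = 0.00082) and 0.48 ± 0.08 with a peak at ZT2.2 in WT (adjusted p = 0.0014). It was lowest at ZT16 in both, at 9.75 ± 0.25 in KO-labelled livers and 9.92 ± 0.20 in WT.

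**Figure D1:**
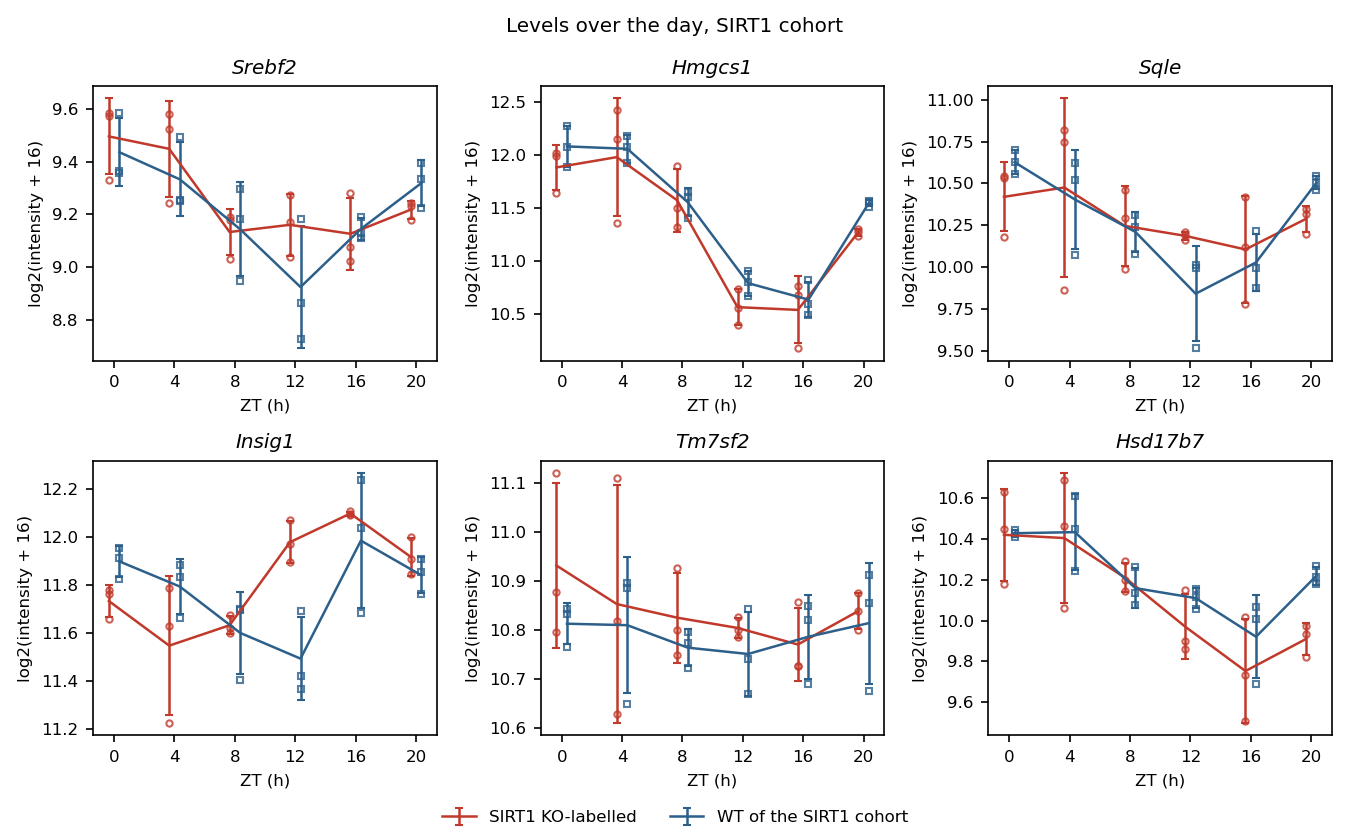
Level of each measured member (y axis, log2(intensity + 16)) by ZT in hours (x axis) in SIRT1 KO-labelled livers (red circles) and WT livers of the SIRT1 cohort (blue squares). Symbols are single arrays, lines join means of 3 arrays and bars are SD. Hmgcs1 has its highest group mean at ZT4 in KO-labelled livers and at ZT0 in WT, and its lowest at ZT16 in both, while Tm7sf2 varies by 0.16 between its highest and lowest group means in KO-labelled livers and by 0.06 in WT.

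Sqle and Insig1 were each called rhythmic in 1 genotype of the SIRT1 cohort. Sqle, the squalene epoxidase that is a rate-controlling step after HMG-CoA reductase, had an amplitude of 0.35 ± 0.15 with a peak at ZT2.2 in SIRT1 KO-labelled livers (limma adjusted p = 0.22) and 0.75 ± 0.11 with a peak at ZT0.25 in WT (adjusted p = 0.00034). Without SIRT1 KO-labelled ZT4 replicate 3, at 9.86 the lowest Sqle value of its group, the KO-labelled amplitude was 0.49 and passed (adjusted p = 0.028). Insig1 had an amplitude of 0.54 ± 0.08 with a peak at ZT16.2 in KO-labelled livers (adjusted p = 0.00012) and 0.38 ± 0.11 with a peak at ZT21.3 in WT (adjusted p = 0.053). The WT rhythm of Insig1 passed without ZT4 replicate 2 (adjusted p = 0.0496), ZT16 replicate 2 (0.018) or ZT20 replicate 3 (0.041). It also passed after quantile normalization (0.029), with a filter of the lowest 60% (0.045) and with array weights (0.040). Tm7sf2, a sterol reductase late in the pathway, had the smallest amplitudes of the 6, at 0.12 ± 0.08 in KO-labelled livers and 0.07 ± 0.06 in WT (adjusted p = 0.46 and 0.70).

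In SIRT1 KO-labelled livers the group means of Insig1 ran, from ZT0 to ZT20, through 11.73, 11.55, 11.63, 11.98, 12.10 and 11.92. In WT livers they ran through 11.90, 11.80, 11.60, 11.49, 11.99 and 11.84. The 3 KO-labelled arrays at ZT16 (12.11, 12.10 and 12.09) lay above all 3 at ZT4 (11.63, 11.79 and 11.23), the time of lowest mean, which overlapped ZT8 (11.60, 11.68 and 11.62), whereas the WT arrays at ZT16 and at ZT12, the times of highest and lowest mean, overlapped (11.68 to 12.24 against 11.37 to 11.69).

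In the SIRT6 cohort fewer members passed the test of a daily rhythm. Insig1 and Sqle passed in SIRT6 KO-labelled livers, 2 of 6 members (10.6% of all genes), both with peaks in the dark phase. In their WT 0 of 6 passed (10.1% of all genes), with 1 of 6 at an unadjusted p under 0.05, and the F test over the 6 times also called 0. Hmgcs1, the member of largest amplitude in the SIRT1 cohort, was not called rhythmic in either genotype here.

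Sqle in SIRT6 KO-labelled livers read 11.19, 11.01 and 11.15 at ZT16 and 10.69, 10.34 and 9.82 at ZT4, with no overlap between these 2 times. In WT it read 11.20, 11.15 and 10.78 at ZT16 and 10.34, 10.93 and 11.10 at ZT4, which overlapped. The amplitude was 0.66 ± 0.16 with a peak at ZT16.3 in KO-labelled livers (limma adjusted p = 0.031) and 0.20 ± 0.22 in WT (adjusted p = 0.77). Insig1 in KO-labelled livers read 11.44, 11.87 and 11.72 at ZT16 and 11.27, 10.58 and 10.68 at ZT8, again without overlap. In WT it read 11.43, 11.37 and 11.70 at ZT16 and 11.17, 11.10 and 10.73 at ZT8, also apart, and its highest mean was 11.69 ± 0.16 at ZT4. Its amplitude was 0.63 ± 0.15 with a peak at ZT17.5 in KO-labelled livers (adjusted p = 0.032) and 0.52 ± 0.17 with a peak at ZT21.8 in WT (adjusted p = 0.11).

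Both calls in SIRT6 KO-labelled livers were lost with some single arrays left out. The call of Sqle ended without ZT4 replicate 2 or 3, ZT8 replicate 3, ZT16 replicate 1, 2 or 3, or ZT20 replicate 3 (adjusted p = 0.050 to 0.070), and that of Insig1 without ZT4 replicate 3, ZT8 replicate 2 or 3, ZT16 replicate 2 or 3, or ZT20 replicate 1 or 3 (adjusted p = 0.052 to 0.078). The F test over the 6 times gave adjusted p = 0.21 for Sqle and 0.079 for Insig1. With centred medians Insig1 gave 0.064. In WT livers of the SIRT6 cohort Insig1 passed without ZT0 replicate 3 (adjusted p = 0.049) and with array weights (0.026).

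The other members of the SIRT6 cohort did not pass in either genotype as fitted. Hmgcs1 had 0.27 ± 0.20 in KO-labelled livers and 0.32 ± 0.29 in WT, and Srebf2 had 0.15 ± 0.11 in KO-labelled livers and 0.15 ± 0.12 in WT. Hsd17b7 had 0.46 ± 0.16 with a peak at ZT17.4 in KO-labelled livers (limma adjusted p = 0.14) and 0.21 ± 0.20 in WT (adjusted p = 0.71), and its KO-labelled rhythm passed with the upper quartile of each array as covariate (0.044). Tm7sf2 had 0.20 ± 0.11 in KO-labelled livers and 0.19 ± 0.14 in WT. Replicates spread more here than in the SIRT1 cohort: the median SD of the members over groups was 0.22 in SIRT6 KO-labelled livers and 0.26 in their WT, against 0.14 in SIRT1 KO-labelled livers and 0.12 in their WT.

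**Figure D2:**
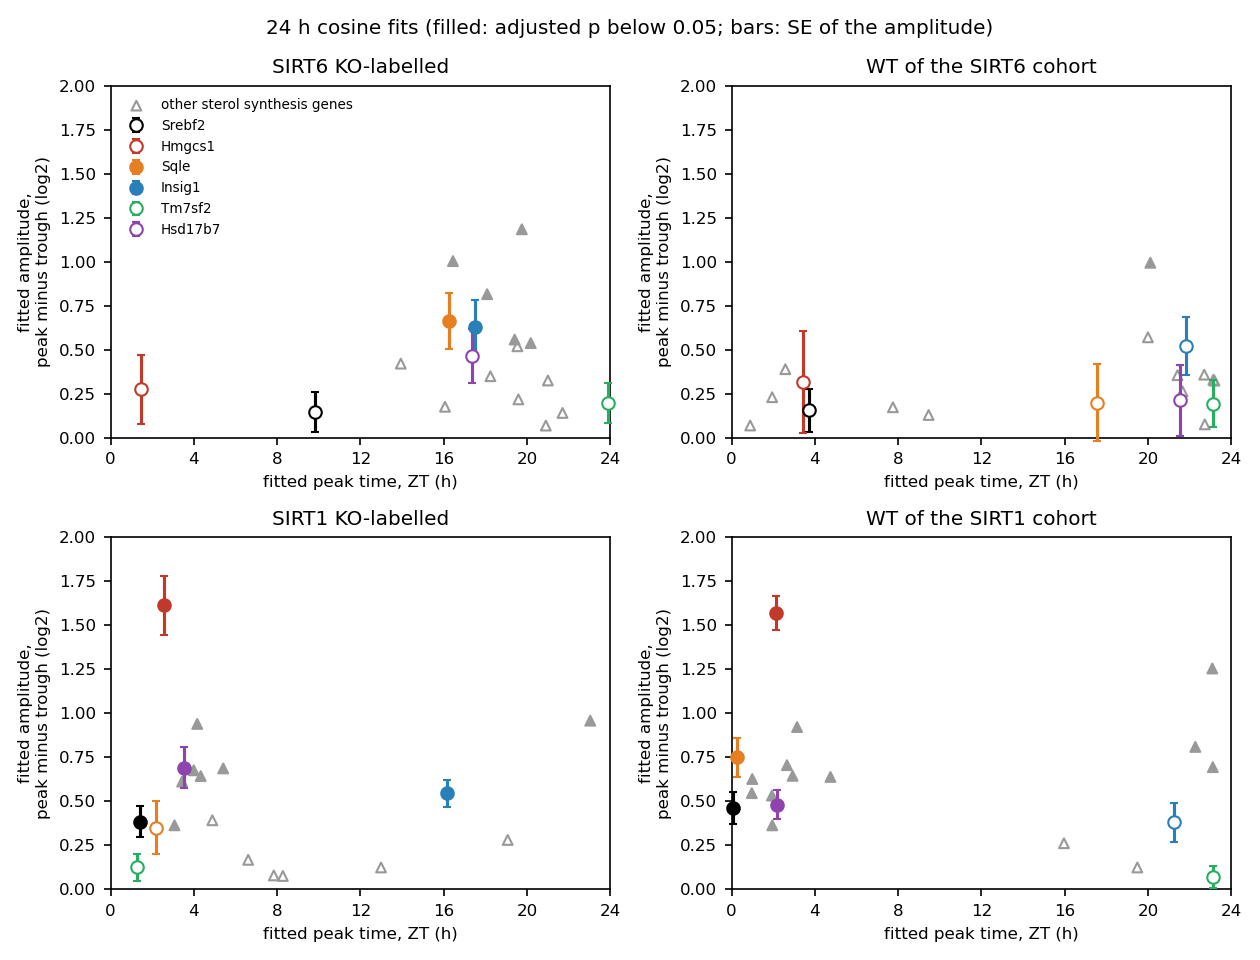
Fitted amplitude (y axis, peak minus trough, log2) against fitted peak time (x axis, ZT in hours) of a 24 h cosine in the 4 sets of 18 arrays, with bars of SE. Filled symbols passed an adjusted p of 0.05, and grey triangles are the other sterol synthesis genes. In the SIRT1 cohort Hmgcs1 stands at amplitudes of 1.61 and 1.57 just after ZT2, while in the SIRT6 cohort it stands at 0.27 and 0.32 with open symbols.

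The difference in rhythm between genotypes was tested directly, and 0 of 6 members passed in either cohort. The test takes amplitude and peak time together. Each adjusted p in this paragraph is from that joint test, while the 95% intervals are for amplitude alone. In the SIRT6 cohort limma's test called 1 gene of 13308 (0.00751%), with 8.25% of genes at an unadjusted p under 0.05, and in the SIRT1 cohort 0 genes (0%), with 7.25% at an unadjusted p under 0.05. Insig1 was the 1 member of the 6 with an unadjusted p under 0.05 in each cohort. Its fitted peak in KO-labelled minus WT livers was −4.30 ± 1.57 h (SE) in the SIRT6 cohort (limma adjusted p = 0.60) and −5.10 ± 1.22 h in the SIRT1 cohort (limma adjusted p = 0.64). The amplitude of Sqle differed by 0.46 (95% interval −0.09 to 1.02, adjusted p = 0.79) between SIRT6 KO-labelled livers and their WT, and by −0.40 (−0.79 to −0.01, adjusted p = 0.71) between SIRT1 KO-labelled livers and their WT. For Hmgcs1 the difference in amplitude in the SIRT1 cohort was 0.04, with an interval of −0.36 to 0.45.

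Rhythms were then compared between the cohorts within 1 genotype label, a comparison added after the data were seen. In it strain and cohort cannot be told apart, nor, for KO-labelled livers, from the gene knocked out. Here too the adjusted p tests amplitude and peak time together, and neither was tested alone. The clock genes themselves were not all alike between the WT livers of the cohorts: the peak of Nr1d1 in the SIRT6 minus the SIRT1 cohort was −2.32 ± 0.43 h (limma adjusted p = 0.047) and that of Dbp −1.93 ± 0.50 h (adjusted p = 0.12). In KO-labelled livers these differences were −0.10 ± 0.48 h for Nr1d1 and −0.85 ± 0.46 h for Dbp (adjusted p = 0.96 and 0.58). Between SIRT6 and SIRT1 KO-labelled livers, 2 of 6 members differed (0.586% of all genes), and 4 of 6 had an unadjusted p under 0.05 (13.1% of all genes). Hmgcs1 had the smaller amplitude in SIRT6 KO-labelled livers, 0.27 against 1.61 in SIRT1 KO-labelled livers, a difference of −1.34 ± 0.28 (limma adjusted p = 0.033). Hsd17b7 had its fitted peak at ZT17.4 in SIRT6 KO-labelled livers and at ZT3.5 in SIRT1 KO-labelled livers. The difference was −10.1 ± 1.4 h on the 24 h circle, with amplitudes of 0.46 and 0.69 (limma adjusted p = 0.016). Its 24 h cosine did not pass in SIRT6 KO-labelled livers (limma adjusted p = 0.14). Sqle had its fitted peak at ZT16.3 in SIRT6 KO-labelled livers and at ZT2.2 in SIRT1 KO-labelled livers, at an adjusted p of 0.075. The cosine of Sqle did not pass in SIRT1 KO-labelled livers (limma adjusted p = 0.22). The call of Hmgcs1 ended without SIRT6 KO-labelled ZT0 replicate 2, ZT4 replicate 3 or ZT16 replicate 1, or SIRT1 KO-labelled ZT4 replicate 2 or ZT16 replicate 3 (adjusted p = 0.051 to 0.071). An F test over the 6 times ended both calls (adjusted p = 0.26 for Hmgcs1 and 0.21 for Hsd17b7), as did centred medians (0.084 for each), and the call of Hmgcs1 also ended with no filter (0.0503) and after quantile normalization (0.051).

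Between the WT livers of the SIRT6 and SIRT1 cohorts, 0 of 6 members passed this test (0.0827% of all genes did), with 2 of 6 at an unadjusted p under 0.05 and 16.8% of all genes there. These were Hmgcs1, with a difference in amplitude of −1.25 ± 0.31 (limma adjusted p = 0.12), and Sqle, with −0.55 ± 0.25 (adjusted p = 0.21). Whether the cohort difference of Hmgcs1 differed between the genotypes was not tested.

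For the level averaged over the day, all 6 members had the lower mean in SIRT6 KO-labelled livers, and 1 passed the test: Tm7sf2 fell by 0.22 on the log2 scale. Insig1 and Hsd17b7 had differences of about the same size that did not pass, and Srebf2, Hmgcs1 and Sqle differed by less than 0.1. In the same comparison 6.61% of all genes were called, 3.22% as lower, and 48.3% had an estimate below 0. An unadjusted p under 0.05 was seen for 3 of the 6 members and 19.3% of all genes. In the SIRT1 cohort 0 of 6 members passed (2.27% of all genes did).

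Tm7sf2 ran from 10.11 to 10.71 (median 10.48) in the 18 SIRT6 KO-labelled arrays and from 10.35 to 11.15 (median 10.65) in the 18 WT arrays. These ranges overlapped, yet 16 of 18 KO-labelled arrays lay below the WT mean of their own time, and the mean was lower at all 6 times, as for 5.7% of all genes. The difference was −0.22 ± 0.06 (SE), with a 95% interval of −0.35 to −0.09, or 0.859-fold (limma adjusted p = 0.038). The call ended when any 1 of 21 arrays was left out, with estimates of −0.19 to −0.22 and adjusted p of 0.052 to 0.069. These were 10 KO-labelled arrays (ZT0 replicate 3, ZT4 replicates 1 and 3, ZT8 replicates 2 and 3, ZT12 replicates 1 and 3, ZT16 replicates 1 and 2, ZT20 replicate 1) and 11 WT arrays (ZT0 replicate 1, ZT4 replicates 2 and 3, ZT8 replicates 1 and 3, ZT12 replicates 2 and 3, ZT16 replicates 1 and 3, ZT20 replicates 2 and 3). Centring array medians gave −0.23 (adjusted p = 0.12), and testing without the filter gave an adjusted p of 0.055. Without the WT array that stood apart, the difference was −0.24 (adjusted p = 0.021).

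Insig1 ran from 10.58 to 11.87 (median 11.36) in SIRT6 KO-labelled arrays and from 10.73 to 12.00 (median 11.51) in WT. It differed by −0.20 ± 0.07 (limma adjusted p = 0.099), with 15 of 18 KO-labelled arrays below the WT mean of their time. Hsd17b7 ran from 9.24 to 10.29 (median 9.72) in KO-labelled arrays and from 9.33 to 10.51 (median 9.99) in WT, a difference of −0.26 ± 0.10 (adjusted p = 0.12), also with 15 of 18 below. Both passed in 1 fit of all 72 arrays (adjusted p = 0.031 for Insig1 and 0.033 for Hsd17b7) and with array weights (0.0042 and 0.0048). Insig1 also passed without WT ZT0 replicate 3 (0.040) or KO-labelled ZT8 replicate 1 (0.030). The genes that differed least were Srebf2 at −0.04 ± 0.06, Hmgcs1 at −0.09 ± 0.14 and Sqle at −0.03 ± 0.10 (adjusted p = 0.86, 0.83 and 0.93). Sqle turned to 0.0046 without KO-labelled ZT4 replicate 3.

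**Figure D3:**
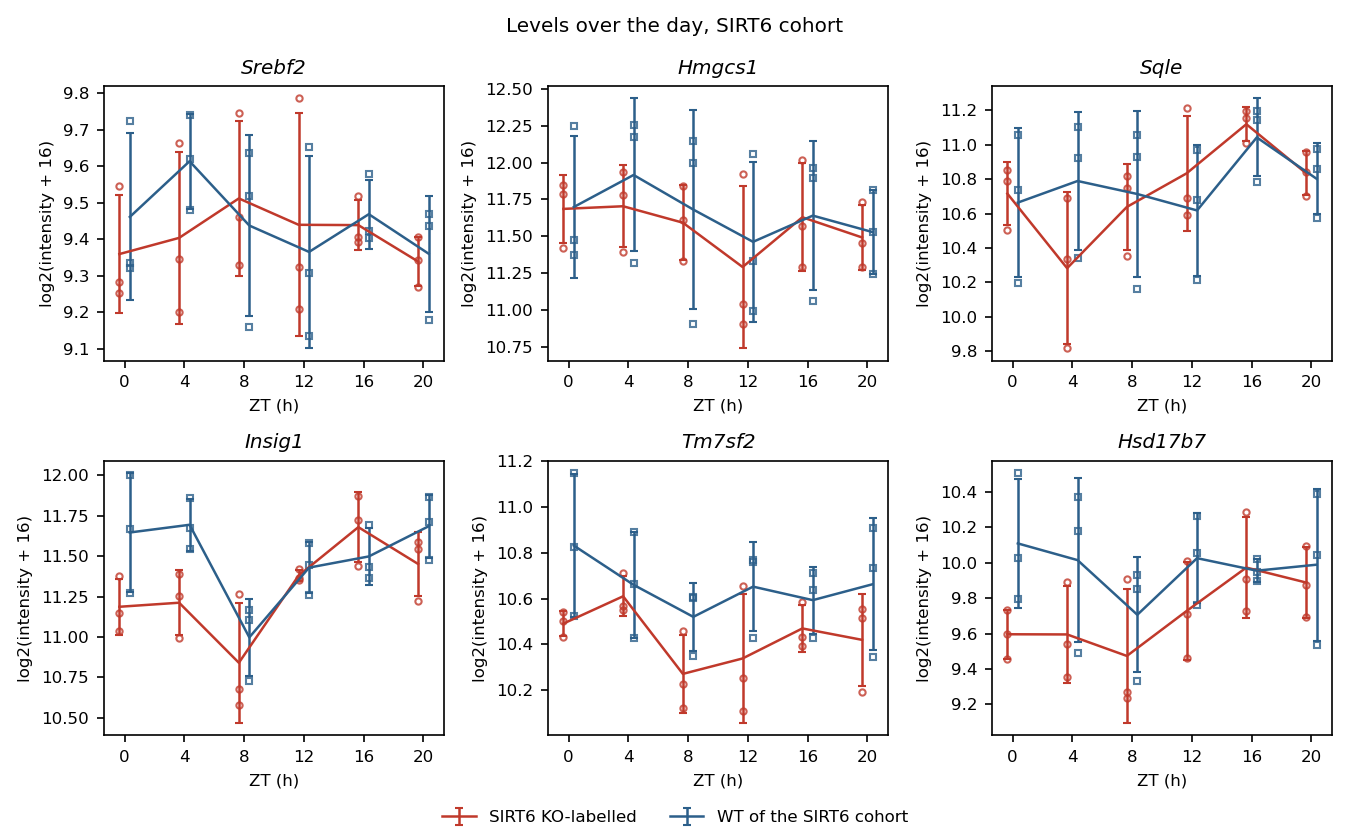
Level of each measured member (y axis, log2(intensity + 16)) by ZT in hours (x axis) in SIRT6 KO-labelled livers (red circles) and WT livers of the SIRT6 cohort (blue squares). Symbols are single arrays, lines join means of 3 arrays and bars are SD. The KO-labelled mean of Tm7sf2 lies below the WT mean at all 6 times, with arrays that overlap at each.

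Markers of other cells were read in the same comparison, where 48.3% of all genes had an estimate below 0, and 0 of these markers were called. All 10 Kupffer cell markers had the higher mean in SIRT6 KO-labelled livers (median difference 0.19, 0 called), with a summed intensity of 2732 to 16459 in KO-labelled arrays and 2116 to 13484 in WT arrays. All 7 stellate cell markers (median difference 0.07, summed intensity 3934 to 6718 in KO-labelled and 3295 to 6882 in WT arrays) and 9 of 11 acute phase genes (median 0.05, summed intensity 28387 to 77035 in KO-labelled and 28717 to 55562 in WT arrays) were likewise higher on average, 0 of them called. Other lists were mixed, with 3 of 7 endothelial, 3 of 4 lymphocyte and 1 of 3 bile duct markers higher. Median summed intensity was 39493 in KO-labelled and 39322 in WT arrays for acute phase genes, and 4627 and 4435 for stellate markers. The part of all these genes in the differences of the members was not tested.

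In the SIRT1 cohort the averaged differences were −0.14 ± 0.07 for Hmgcs1 (limma adjusted p = 0.30) and −0.10 ± 0.05 for Hsd17b7 (adjusted p = 0.32). Srebf2, Insig1 and Tm7sf2 each differed by 0.05, and Sqle by 0.02, with adjusted p from 0.52 to 0.92. The intervals reached at most 0.29 from 0, which was the lower bound for Hmgcs1. At an unadjusted p under 0.05 there were 0 of 6 members and 18% of all genes, and 0 members passed under the other settings tried or with any 1 array left out. The Kupffer cell markers went the other way here, with 10 of 10 lower in SIRT1 KO-labelled livers (median −0.12, 0 called, summed intensity 1440 to 5379 in KO-labelled and 2204 to 5885 in WT arrays), and 7 of 7 endothelial markers were lower too (median −0.06, 0 called, summed intensity 3580 to 6502 in KO-labelled and 5111 to 7204 in WT arrays). Of 11 acute phase genes 5 were higher and 6 lower (median −0.02), with 1 called. This was Apcs, serum amyloid P, which fell by 0.41 ± 0.08 (limma adjusted p = 0.0096). Of 10 hepatocyte markers 4 were higher and 6 lower (median −0.01), with 1 called. This was Cyp3a11, a drug-metabolising cytochrome P450, which fell by 0.18 ± 0.04 (limma adjusted p = 0.017). Of all genes 1.21% were called as lower. Of the other lists, 6 of 7 stellate, 2 of 4 lymphocyte and 2 of 3 bile duct markers were higher. Over all genes 50.9% had an estimate below 0. The part of all these genes in the values of the members was not tested.

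The difference between the 2 KO effects was tested over all 72 arrays, each KO against its own WT, where strain and knockout cannot be told apart. Tm7sf2 was the 1 member of 6 that passed (5.76% of all genes did), and 2 of 6 had an unadjusted p under 0.05 (19.6% of all genes). It stood at −0.27 ± 0.08 for the SIRT6 effect minus the SIRT1 effect (limma adjusted p = 0.024). Insig1 followed at −0.25 ± 0.09 (adjusted p = 0.081), and it passed without SIRT6 KO-labelled ZT8 replicate 1 (adjusted p = 0.026), WT ZT0 replicate 3 of the SIRT6 cohort (0.036) or SIRT1 KO-labelled ZT4 replicate 3 (0.045). The call of Tm7sf2 held with any 1 array left out (adjusted p = 0.0087 to 0.039) and ended with array medians centred (−0.26, adjusted p = 0.091).

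**Figure D4:**
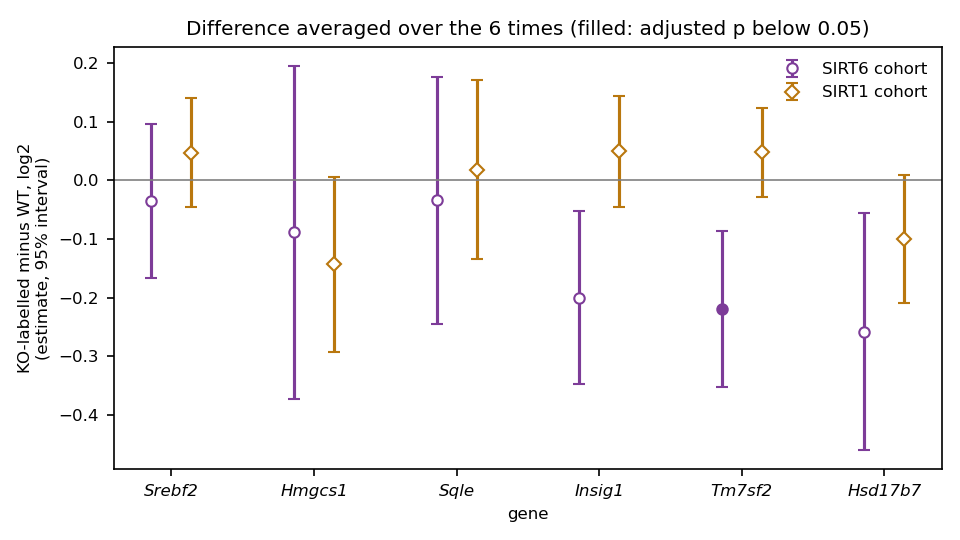
KO-labelled minus WT level averaged over the 6 times (y axis, log2) for each measured member (x axis) in the SIRT6 cohort (purple circles) and the SIRT1 cohort (orange diamonds), with 95% intervals. All 6 SIRT6 estimates lie below 0, and the filled symbol, Tm7sf2 at −0.22, is the 1 that passed an adjusted p of 0.05.

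At single times 0 members passed in either cohort by limma, with 1 correction over genes and times. In the SIRT6 cohort 0.473% of genes passed at 1 or more times, and in the SIRT1 cohort 0%. Of the 36 member and time values in each cohort 4 had an unadjusted p under 0.05, as had 7.9% of the SIRT6 values of all genes and 8.22% of the SIRT1 values. KO-labelled and WT arrays did not overlap in 2 of the 36 SIRT6 values (12.9% over all genes) and in 7 of the 36 SIRT1 values (13% over all genes).

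Insig1 at ZT12 of the SIRT1 cohort had the smallest p of these, reading 12.07, 11.90 and 11.97 in KO-labelled livers and 11.37, 11.69 and 11.42 in WT, so all 3 KO-labelled arrays were above. The difference was 0.49 ± 0.11 (limma adjusted p = 0.24). Sqle was apart in the same direction at that time, at 10.16, 10.19 and 10.21 in KO-labelled livers and 9.51, 10.01 and 9.99 in WT (adjusted p = 0.64). At ZT12, 9.24% of all genes had the 3 KO-labelled arrays above.

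At ZT20 of the SIRT1 cohort 3 members lay below their WT without overlap, where 9.88% of all genes did. Hmgcs1 read 11.23, 11.28 and 11.30 in KO-labelled livers and 11.57, 11.51 and 11.56 in WT, and Sqle read 10.20, 10.32 and 10.35 against 10.54, 10.46 and 10.51 in WT. Hsd17b7 read 9.82, 9.93 and 9.98 in KO-labelled livers and 10.18, 10.21 and 10.27 in WT, a difference of −0.31 ± 0.13 (adjusted p = 0.55). At ZT0 Sqle and Insig1 were the ones apart, both below in KO-labelled livers (8.47% of all genes), so each lay below WT at ZT0 and above it at ZT12.

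In the SIRT6 cohort Insig1 was apart at ZT4, reading 11.26, 11.39 and 10.99 in KO-labelled livers and 11.54, 11.86 and 11.68 in WT, with all KO-labelled arrays below, as for 11.1% of all genes. The difference was −0.48 ± 0.18 (limma adjusted p = 0.43). Hsd17b7 was apart at ZT0, at 9.73, 9.46 and 9.60 in KO-labelled livers and 10.51, 10.03 and 9.80 in WT (10.6% of all genes), a difference of −0.51 ± 0.24 (adjusted p = 0.61). Of the other members 0 were apart at any of the 6 times.

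Of 13 other measured genes of the pathway, 5 were rhythmic in SIRT6 KO-labelled livers, with peaks from ZT16.4 to ZT20.2 (10.6% of all genes were), and 1 in their WT (10.1%). In SIRT1 KO-labelled livers 7 were rhythmic, with peaks from ZT23.0 to ZT5.4 (23.2% of all genes), and in their WT 11 were, with peaks from ZT22.3 to ZT4.7 (18.3%). Counting members, 0 of 17 were rhythmic in all 4 sets (3.19% of all genes were). In level, 11 of the 13 had a lower mean in SIRT6 KO-labelled livers (median −0.13, against 0.0035 over all genes) and 8 of 13 in SIRT1 KO-labelled livers (median −0.02), with 0 called in either.

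Among 10 other genes that control SREBP processing, 1 fell in SIRT6 KO-labelled livers (3.22% of all genes did) and 0 in SIRT1 KO-labelled livers (1.21%). This was Ubxn8, a protein of the endoplasmic reticulum that takes part in protein degradation there, at −0.17 ± 0.04 (limma adjusted p = 0.0033), below the WT mean of its time in 16 of 18 arrays. Insig1 was called rhythmic in KO-labelled sets alone as fitted. Its WT amplitudes were 0.52 (SIRT6 cohort, limma adjusted p = 0.11) and 0.38 (SIRT1 cohort, 0.053). The joint test of its rhythm between genotypes did not pass (limma adjusted p = 0.60 for SIRT6 and 0.64 for SIRT1). Its calls in SIRT6 KO-labelled livers and in each WT set changed with some settings or single arrays left out. The rhythm of Insig1 was not tested against that of Insig2. Insig2, the second INSIG gene, was called rhythmic in all 4 sets. Its amplitude was 1.30 with a peak at ZT22.5 in SIRT6 KO-labelled livers and 1.39 at ZT22.9 in their WT, and 1.62 at ZT23.6 in SIRT1 KO-labelled livers and 1.69 at ZT23.8 in their WT. Rnf145, a ubiquitin ligase that acts on SCAP, was also rhythmic in all 4 sets, with amplitudes of 1.00 to 1.22 and peaks from ZT10.2 to ZT11.4. Its call in WT of the SIRT6 cohort ended without ZT8 replicate 1, ZT12 replicate 1 or ZT20 replicate 2 or 3 (adjusted p = 0.052 to 0.056), and the F test over the 6 times gave 0.11 in SIRT6 KO-labelled livers and 0.13 in their WT.

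Of 13 measured genes of cholesterol uptake and handling, 1 rose in SIRT6 KO-labelled livers (3.39% of all genes did) and 0 changed in SIRT1 KO-labelled livers (2.27%). This was Npc1, which exports cholesterol from lysosomes, at 0.23 ± 0.06 (limma adjusted p = 0.021), above the WT mean of its time in 15 of 18 arrays. With centred medians its adjusted p was 0.081. Npc1 was rhythmic in all 4 sets, with amplitudes of 0.73 to 0.94 and peaks from ZT7.4 to ZT8.6, as was Lipa, the lysosomal acid lipase, with amplitudes of 0.24 to 0.42 and peaks from ZT21.7 to ZT23.6. The call of Lipa in WT of the SIRT1 cohort ended without any 1 of 11 arrays (ZT0 replicate 3, ZT4 replicate 2, ZT8 replicates 2 and 3, ZT12 replicates 1, 2 and 3, ZT16 replicates 1 and 3, ZT20 replicates 1 and 3, adjusted p = 0.051 to 0.11). Under other settings Lipa also failed to pass in WT of the SIRT1 cohort (with centred medians, no filter, the replicate block, no trend or the F test, adjusted p = 0.052 to 0.21), in SIRT6 KO-labelled livers (with centred medians or the F test, 0.067 and 0.064) and in WT of the SIRT6 cohort (with the F test, 0.052). Npc1 did not pass in WT of the SIRT6 cohort with centred medians (0.087). Of 15 lipogenic genes of SREBP1, a related factor that drives fatty acid synthesis, 0 changed in level in either cohort. Of these 15, 10 were rhythmic in SIRT6 KO-labelled livers (10.6% of all genes) and 7 in their WT (10.1%), and 5 in SIRT1 KO-labelled livers (23.2%) and 10 in their WT (18.3%).

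Over the 24 group means, each centred on its cohort, the correlations of the 15 pairs ran from −0.22 (Hmgcs1 and Insig1) to 0.73 (Srebf2 and Hmgcs1) with a median of 0.45. These group means share arrays between genes and are given as a description. The 8 other genes whose courses were most like those of the members, by mean correlation over the same 24 means, were Mmab (0.64), Cdkal1 (0.61), Fdps (0.61), Derl2 (0.58), Cyp51 (0.58), Fdft1 (0.57), Snupn (0.57) and Farsb (0.57). Fdps, Fdft1 and Cyp51 encode enzymes of the same pathway, and Mmab encodes an enzyme of cobalamin metabolism.

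Within some groups a replicate lay apart in all members at once. All 6 members lay on 1 side of their group mean in 2 of 18 SIRT6 KO-labelled arrays and 7 of 18 of their WT, and in 5 of 18 SIRT1 KO-labelled arrays and 3 of 18 of their WT. In the SIRT6 cohort the widest mean deviations were 0.38 in WT ZT0 replicate 1 and −0.35 in WT ZT4 replicate 1. In the SIRT1 cohort they were −0.39 in KO-labelled ZT4 replicate 3 and 0.28 in KO-labelled ZT4 replicate 2. In the array farthest below its group, SIRT1 KO-labelled ZT4 replicate 3, Hmgcs1 lay 0.62 and Sqle 0.61 under the group mean, and Srebf2 0.21 and Tm7sf2 0.22 under it.

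**Figure D5:**
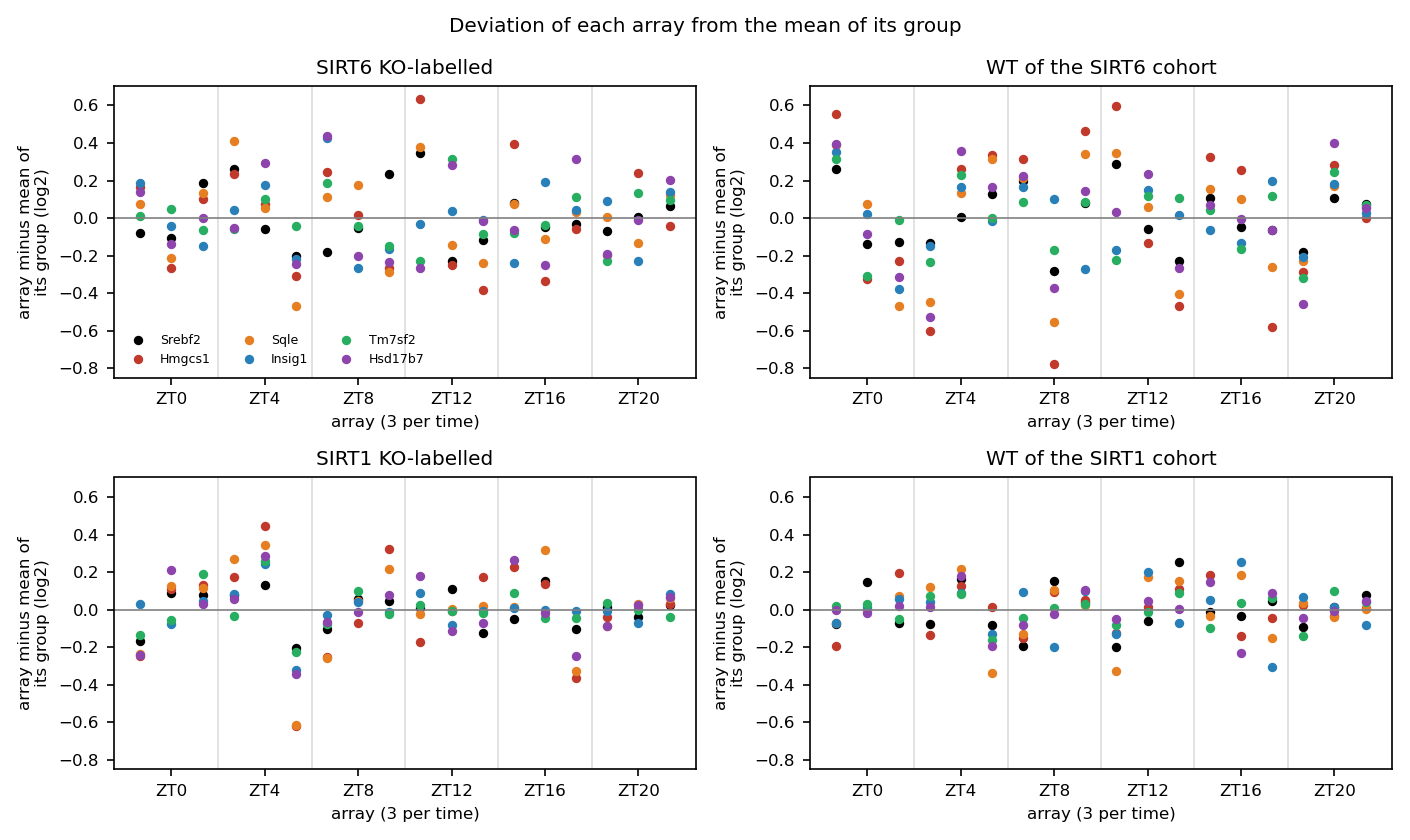
Deviation of each array from the mean of its group (y axis, log2) for the 6 measured members, with the 18 arrays of each set along the x axis in order of ZT and replicate number. In WT ZT0 replicate 1 of the SIRT6 cohort all 6 members lie above 0, with a mean of 0.38, and in SIRT1 KO-labelled ZT4 replicate 3 all 6 lie below it.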

How the data were processed

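Liver RNA was measured on 72 single-colour Affymetrix arrays. The submitters' processing notes name Affymetrix Expression Console 1.1.1 and PLIER 2.0. How PLIER was set and which genome build the array follows are not given in the sources. The authors deposited 1 table of linear intensity per probe set, to judge by the range of its values, and 0 of its columns were left unmatched. Groups, times and replicate numbers came from the sample titles.

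The platform annotation gave 1 symbol for 23521 of the 41345 probe sets, more than 1 for 1814, and no symbol for 16010. Per gene, the probe set of highest mean among those with 1 symbol was used. Intensities were taken as log2(intensity + 16), and the lowest 40% of 22180 genes were left out, so that 13308 were tested. The deposited values themselves were not changed otherwise.

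The 12 group means of a cohort were estimated together by limma 3.58.1 (R 4.3.3), with empirical Bayes moderation and an intensity trend. The 24 h rhythm was a moderated F test of a cosine over the 18 arrays of a set. Differences in rhythm used genotype times cosine terms over 36 arrays, and the difference between the knockout effects used all 72. P-values were adjusted by the Benjamini-Hochberg method over all genes tested (over genes and times together at single times), with a threshold of 0.05. The comparison of rhythms between cohorts was added after the data were seen. The tests of averaged level, of rhythm in KO-labelled sets and of the difference in rhythm between genotypes were checked on simulated data. The tests at single times and those between cohorts were not.

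The members and gene lists were chosen with earlier results of these data known. Genes named besides the members follow a rule: the targeted genes and clock genes, list genes past the threshold for level, up to 4 genes per cholesterol list rhythmic in all 4 sets, and the 8 genes most like the members. Same-numbered replicates of the KO-labelled and WT groups correlated at over 0.1 in 11 of 18 pairs (SIRT6 cohort, −0.36 to 0.74) and 6 of 18 (SIRT1 cohort, −0.28 to 0.37). Whether the numbers pair samples is not stated, and such correlations cannot decide it. The main tests treat the samples as unpaired. Alternatives covered normalization, pseudocount, filter, block, array weights, trend, probe set choice, joint fit, an F test over times, an array covariate and leaving out each array.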

Additional observations from a re-analysis of the deposited data

Results flagged for a closer look

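Tm7sf2 stood out because the KO effect on its level differed between the cohorts in a test of that difference, at −0.27 for the SIRT6 effect minus the SIRT1 effect on the log2 scale. Its call ended with centred medians (limma adjusted p = 0.091), and strain and knockout cannot be told apart in this test. Hmgcs1 stood out because its rhythm differed between SIRT6 and SIRT1 KO-labelled livers, with a difference in amplitude of −1.34. That call ended by the F test over the 6 times, with centred medians, with no filter, after quantile normalization, and with any 1 of 5 arrays left out (3 SIRT6 KO-labelled and 2 SIRT1 KO-labelled). Hsd17b7 stood out because its rhythm differed between the same sets, with a difference in amplitude of −0.23 and in peak time of −10.1 h, and its call ended by the F test and with centred medians.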

How the results depend on the processing

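Across 14 alternative settings, 811 of 861 values of 72 results kept their direction and their side of the threshold (a count of members was taken as kept within 1.5 times its value), and so did 1796 of 1908 values with 1 array left out. The fitted amplitude of a set is never below 0, so for these results only the side of the threshold could change. The number of members called for level in the SIRT6 cohort was 3 in 1 fit of 72 arrays, 3 with array weights, 0 with centred medians and 0 with no filter, against 1 as reported. With array weights 1 member was called at a single time and 1 was rhythmic in WT of the SIRT6 cohort. The members rhythmic in SIRT6 KO-labelled livers numbered 0 by the F test over the 6 times and 1 with centred medians, against 2, and 3 with the upper quartile as covariate. In WT of the SIRT1 cohort they numbered 3 by the F test and 5 with quantile normalization, the filter of the lowest 60% or array weights, against 4. The members whose KO effect differed between cohorts numbered 2 with array weights and 0 with centred medians, against 1. Those with a rhythm that differed between the cohorts in KO-labelled livers, a comparison added after the data were seen, numbered 0 by the F test, 0 with centred medians, 1 with no filter and 1 after quantile normalization, against 2, and 3 with array weights. The averaged difference of Sqle in the SIRT1 cohort was −0.028 with array weights, against 0.018. The cause of these changes was not tested.

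With 1 array left out, the members called for level in the SIRT6 cohort ranged from 0 to 2, those rhythmic from 0 to 2 in SIRT6 KO-labelled livers and from 0 to 1 in their WT, those with differing KO effects from 1 to 2, and those with differing KO rhythms from 1 to 3. The difference of Sqle ranged from −0.0804 to 0.00457 for SIRT6 and from −0.0105 to 0.0691 for SIRT1. With the replicate number as a block (whether the numbers pair samples is not stated), 849 genes were called for level in the SIRT6 cohort and 288 for SIRT1, against 880 and 302, and no call of a member changed. A KO-labelled array correlated best with the WT array of its own number in 8 of 18 cases for SIRT6 and 7 of 18 for SIRT1. Array weights called 2623 genes for level in the SIRT6 cohort and 1044 for SIRT1, and the upper quartile of each array as covariate, added after the data were seen, 1664 and 1321. In WT of the SIRT6 cohort 1349 genes were rhythmic, 842 with centred medians and 2565 with array weights. Leaving the filter out called 209 genes for level in the SIRT1 cohort.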

Other observations

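Of the clock genes used to check the time labels, Nr1d1, a repressor of Arntl, passed the test at ZT0 of the SIRT6 cohort, reading 6.22, 7.89 and 7.24 in KO-labelled livers and 10.23, 8.74 and 10.53 in WT. The KO-labelled arrays all lay below, and the difference was −2.72 ± 0.45 (SE, limma adjusted p = 0.0062). Its fitted peak was at ZT6.2 in KO-labelled livers and at ZT4.6 in WT, and the difference in rhythm did not pass (1.59 ± 0.54 h, adjusted p = 0.54). Of the lipogenic genes, Thrsp and Fads2, singled out after their values were seen, were rhythmic in all 4 sets. Thrsp had an amplitude of 2.42 in SIRT6 KO-labelled livers and 2.05 in their WT, and 1.70 in SIRT1 KO-labelled livers and 1.79 in their WT.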
